A study of Homo sapiens with 3 samples.

Results

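The genes described here are the nuclear valine tRNA genes. They were chosen by name, as every cluster of crosslinked reads whose sense-strand annotation gives a tRNA gene ending in Val and an anticodon. This rule found 101 of the 43210 clusters in the 4 deposited lists, on 26 of the 346 nuclear tRNA genes that have a cluster in any list. The 346 include genes labelled Pseudo or Sup, which are not counted among the 21 isotypes below. Of these genes, 8 carry the anticodon AAC, 13 carry CAC and 5 carry TAC. The rule read the presence of a cluster, so that presence, and the shares of signal that follow from it, are descriptions without a test.

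A tRNA carries its amino acid to the ribosome and reads the codon with its anticodon loop. Valine has 4 codons, which the isoacceptors with the anticodons AAC, CAC and TAC read between them. Each isoacceptor is made from many gene copies, some of them identical in the mature RNA. RNA polymerase III transcribes tRNA genes, RNase P trims the 5′ leader, RNase Z trims the 3′ trailer, and a CCA end is added. DICER belongs to the RNase III family and releases microRNAs from their precursor hairpins and short fragments from long double-stranded RNA. Reads from tRNAs are a usual part of crosslinking libraries, and tRNAs are abundant in cells.

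The study mapped RNA bound by DICER with PAR-CLIP. In this method cells take up the photoreactive nucleoside 4-thiouridine, ultraviolet light crosslinks it to bound protein, and the crosslinked base is read as C in place of T. All samples belong to 1 group of 3 replicates, made from Flp-In HEK293 T-Rex cells, a human embryonic kidney line, carrying FLAG-tagged DICER, and the RNA was trimmed with RNase T1. All replicates carry the same tagged transgene, and no untagged or uncrosslinked library was used here, so a level of conversions holds both binding and the abundance of the RNA. Whether the replicates are separate cultures is not stated in the labels, so the spread between them may be technical. Each replicate has its own list of clusters, and a series-wide list covers all 3.

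The replicate lists held 11577, 18065 and 5099 clusters with 1306125, 1060791 and 595487 T-to-C conversions in replicates 1, 2 and 3. Valine tRNA genes had 31, 24 and 19 of these clusters, with 60224, 84736 and 51554 conversions. Their reads numbered 152839, 162159 and 78546, which collapsed to 5833, 6776 and 2231 distinct reads. Replicate 3 was the shallowest list by each measure. Reads were heavily repeated, and the intervals given below treat each count as independent. They cover counting error at most, and those by conversions are too narrow for that.

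Valine held more of the tRNA signal than any other amino acid in each replicate. Its genes were 6.23% to 7.57% of the tRNA genes with a cluster in a replicate and held 24.4%, 26.9% and 27.2% of tRNA conversions in replicates 1, 2 and 3, a mean of 26.2% ± 1.55 (SD, n = 3). Counted by distinct reads the share was 22.1%, 23.1% and 24.9%, or 23.4% ± 1.40 (SD, n = 3). Valine ranked 1 of 21 isotypes by conversions, by reads and by distinct reads in all 3 replicates. The next isotype by distinct reads was arginine, with 11.6%, 11.5% and 11.4%. By conversions the next was isoleucine in replicate 1 with 11.8%, arginine in replicate 2 with 11.2% and lysine in replicate 3 with 13.3%. The read share of valine was less even, at 28.2%, 19.0% and 17.7%.

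Presence of a cluster did not set valine genes apart from other tRNA genes. Of the 26 genes, 15 had a cluster in all 3 replicates, 5 in a pair of them, 4 in only 1 and 2 in none, the last being chr6.tRNA58-ValCAC and chrX.tRNA4-ValTAC, which entered through the series-wide list with 20 conversions each. The share in all 3 replicates was 57.7% for valine and 60% for the other tRNA genes, against 59.8% of all 346. By anticodon, 4 of 8 AAC genes, 7 of 13 CAC genes and 4 of 5 TAC genes recurred in all 3. Some of these had few reads. The TAC count includes chr11.tRNA17-ValTAC with 3, 5 and 5 distinct reads, and the CAC count chr6.tRNA133-ValCAC with 24, 6 and 2.

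A set of 6 copies held at least 1% of valine conversions in every replicate, a limit set after the values were seen. Together they held 94.9%, 98.3% and 98.8% of valine conversions and 87.6%, 91.9% and 94.4% of valine distinct reads in replicates 1, 2 and 3. The other 9 recurrent genes ranged from 5 to 2045 conversions in a replicate. The 9 genes found in 1 or 2 replicates ranged from 1 to 42. Just inside the limit was chr6.tRNA40-ValTAC, with at least 2.73% in each replicate. Just outside it was chr1.tRNA85-ValCAC, with 3.40%, 0.523% and 0.291%.

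**Figure D1:**
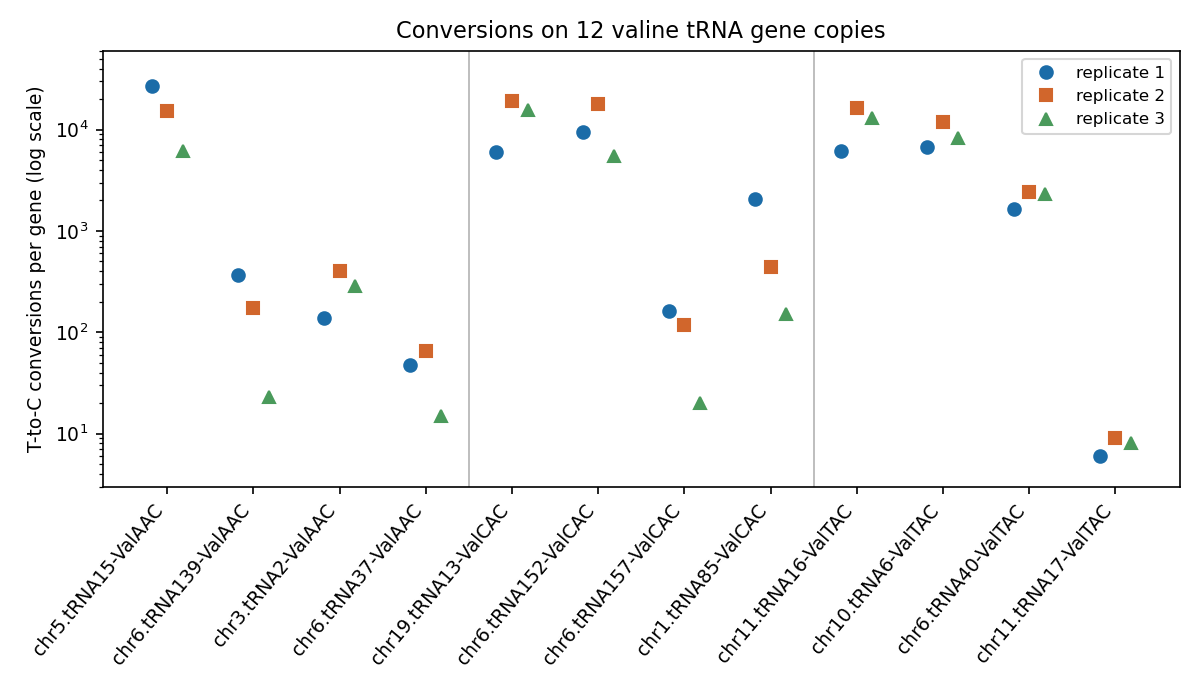
T-to-C conversions per gene on a log axis for the 4 copies of each anticodon with the most distinct reads in the series-wide list, 1 point per replicate. The AAC group has 1 leading copy, the CAC group 2 and the TAC group 3, and replicate 1 is highest on chr5.tRNA15-ValAAC but lowest on chr19.tRNA13-ValCAC.

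Among AAC copies, chr5.tRNA15-ValAAC (hg19 chr5:180615436-180615496, minus strand) had 27236, 15365 and 6172 conversions in replicates 1, 2 and 3. Its distinct reads were 1537, 1215 and 366. Replicate 1 was high in both measures, and the gene held 45.2%, 18.1% and 12% of valine conversions. The other AAC copies were far lower. On chr3.tRNA2-ValAAC there were 137, 403 and 283 conversions, on chr6.tRNA139-ValAAC 371, 175 and 23, and on chr6.tRNA37-ValAAC 48, 65 and 15. None of these replicate values reached the lowest value of chr5.tRNA15-ValAAC.

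Among CAC copies, a pair led. The first, chr19.tRNA13-ValCAC (chr19:4724634-4724727, minus strand), had 5944, 19327 and 15693 conversions and 1092, 1575 and 617 distinct reads. The second, chr6.tRNA152-ValCAC (chr6:27248037-27248134, minus strand), had 9524, 17899 and 5440 conversions and 788, 952 and 262 distinct reads. The first exceeded the second by distinct reads in all 3 replicates and by conversions in replicates 2 and 3 only. Next was chr1.tRNA85-ValCAC with 2045, 443 and 150 conversions, highest in replicate 1. The copy chr6.tRNA157-ValCAC had 161, 119 and 20 conversions but 247, 133 and 30 distinct reads. It had only 2.23, 2.59 and 1.43 reads per distinct read, where chr6.tRNA152-ValCAC had 31.9, 42.1 and 36.6.

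Among TAC copies, chr11.tRNA16-ValTAC (chr11:59318441-59318540, minus strand) had 6101, 16437 and 13089 conversions and 729, 1266 and 479 distinct reads. The copy chr10.tRNA6-ValTAC (chr10:5895656-5895750, minus strand) had 6680, 11862 and 8182 conversions and 620, 815 and 261 distinct reads. A lower level was seen on chr6.tRNA40-ValTAC (chr6:27258399-27258479, plus strand), with 1642, 2399 and 2339 conversions and 344, 403 and 121 distinct reads. These 3 kept the same order by distinct reads in every replicate, while chr10.tRNA6-ValTAC was slightly above chr11.tRNA16-ValTAC by conversions in replicate 1. The remaining recurrent TAC copy, chr11.tRNA17-ValTAC, had 6, 9 and 8 conversions. Its series-wide cluster lies 260 nt from that of chr11.tRNA16-ValTAC on the same strand, and the neighbour had 1017, 1826 and 1636 times as many conversions.

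Ordered by mean share of valine conversions, the leading copies were chr5.tRNA15-ValAAC at 25.1% ± 17.7, chr19.tRNA13-ValCAC at 21.0% ± 10.4, chr11.tRNA16-ValTAC at 18.3% ± 7.69, chr6.tRNA152-ValCAC at 15.8% ± 5.29, chr10.tRNA6-ValTAC at 13.7% ± 2.41 and chr6.tRNA40-ValTAC at 3.36% ± 1.02 (SD, n = 3 each). Neighbours among the first 5 did not differ beyond their spread. The highest share of chr6.tRNA40-ValTAC, 4.54% in replicate 3, was below the lowest share of each of the others. Across the 15 genes with a cluster in every replicate, the order of the copies was similar between replicates. Spearman's rho was 0.907, 0.811 and 0.939 by conversions for replicates 1 and 2, 1 and 3, and 2 and 3, and 0.968, 0.938 and 0.976 by distinct reads. These 15 points share their libraries, and some may share reads between near-identical copies.

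The sources used here do not give how reads matching several copies were placed, so the level of a single copy is uncertain where another copy has the same mature sequence. RefSeq (GRCh38.p14), used for names and lengths only, lists 28 valine tRNA genes of 71 to 73 nt, namely 10 AAC, 13 CAC and 5 TAC. Where a chromosome had a single gene of an anticodon in both sources, the names could be matched. The copies chr10.tRNA6-ValTAC (TRV-TAC3-1), chr19.tRNA13-ValCAC (TRV-CAC3-1) and chr6.tRNA40-ValTAC (TRV-TAC4-1) then each stand alone under their sequence-group name. By contrast chr3.tRNA2-ValAAC (TRV-AAC1-1) is 1 of 5 genes in its group. The other 3 leading copies could not be matched in this way.

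The anticodons shared the valine signal differently between replicates. By conversions AAC was highest in replicate 1, CAC in replicate 2 and TAC in replicate 3. AAC genes had 27811, 16008 and 6535 conversions, or 46.2%, 18.9% and 12.7% of the valine total. CAC genes had 17984, 38021 and 21401 conversions, or 29.9%, 44.9% and 41.5%. TAC genes had 14429, 30707 and 23618 conversions, or 24.0%, 36.2% and 45.8%. The means were 25.9% ± 17.8 for AAC, 38.7% ± 7.88 for CAC and 35.3% ± 11.0 for TAC (SD, n = 3), which overlap within their spread. The AAC mean was 15.8% without replicate 1 and 14.8% without the strongest valine cluster of each replicate. That cluster was on chr5.tRNA15-ValAAC in replicate 1 and on chr19.tRNA13-ValCAC in replicates 2 and 3. Its removal therefore had to lower the AAC share in replicate 1 and raise it in replicates 2 and 3.

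Distinct reads gave a steadier division. CAC held 40.8%, 42.0% and 42.4%, a mean of 41.7% ± 0.864. TAC held 29.1%, 36.7% and 38.8%, a mean of 34.9% ± 5.13. AAC held 30.2%, 21.3% and 18.8%, a mean of 23.4% ± 5.99 (SD, n = 3 each). CAC was highest in all 3 replicates by this measure, and AAC was lowest in replicates 2 and 3. The 95% Wilson intervals reached at most 0.430 percentage points to either side by conversions and 2.05 by distinct reads. The intervals of AAC in replicate 1 did not meet those of replicates 2 and 3 by either measure, while those of CAC overlapped between all replicates by distinct reads. Because the intervals take each count as independent, this is a description and no test of a difference between replicates.

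**Figure D2:**
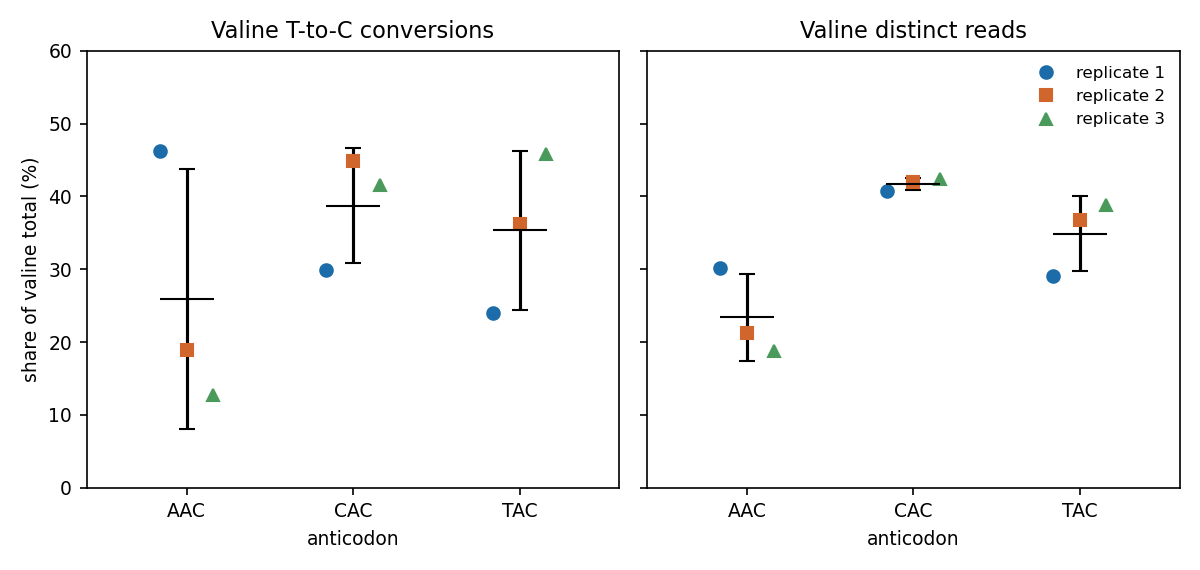
Share of the valine total (%) by anticodon, from conversions on the left and distinct reads on the right. Points are replicates, and black bars are the mean and SD of 3 replicates. AAC in replicate 1 stands at 46.2% by conversions and 30.2% by distinct reads, above both other replicates, while CAC lies between 40.8% and 42.4% by distinct reads.

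Conversions per read, which the choice of genes did not use, were highest on TAC genes when summed by anticodon. AAC genes gave 0.341, 0.402 and 0.483 conversions per read in replicates 1, 2 and 3, CAC genes 0.383, 0.451 and 0.564, and TAC genes 0.594, 0.806 and 0.872. AAC was below CAC by -0.19 ± 0.03 (log2, SD, n = 3) in 3 of 3 replicates, with an exact two-sided sign-flip p = 0.25 and an adjusted p = 0.667 over 8 tests. With AAC and CAC genes counted as 1 group, conversions per read were 0.356, 0.436 and 0.543 in replicates 1, 2 and 3. TAC exceeded the ratio of this group by 0.77 ± 0.11 (log2, SD, n = 3) in 3 of 3 replicates. The exact sign-flip p = 0.25 and adjusted p = 0.667 were the same. The value 0.25 is the smallest that 3 replicates allow, so no test here could pass 0.05. The TAC comparison was added after the values had been seen. Leaving out the strongest valine cluster of each replicate turned the AAC and CAC difference to 0.079.

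The TAC value rested on 2 copies. On chr10.tRNA6-ValTAC conversions per read were 0.742, 0.915 and 0.954, and on chr11.tRNA16-ValTAC 0.560, 0.815 and 0.884. On chr6.tRNA40-ValTAC they were 0.376, 0.483 and 0.632, close to the 0.379, 0.447 and 0.567 of chr6.tRNA152-ValCAC. A lower CAC copy, chr1.tRNA85-ValCAC, reached 0.940, 0.867 and 0.688, so a high ratio was not confined to TAC genes.

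The deposited attributes also give a number of edits per cluster, read here as mismatches to the genome. The files do not define it, and it never exceeded the number of reads in any cluster. TAC genes had 0.867, 0.935 and 0.949 edits per read, AAC genes 0.606, 0.598 and 0.660, and CAC genes 0.581, 0.580 and 0.610. The difference of TAC from the other anticodons, also tested after it was seen, was 0.61 ± 0.07 (log2, SD, n = 3) in 3 of 3 replicates (exact sign-flip p = 0.25, adjusted p = 0.667). The T-to-C share of edits was higher in replicate 3 than in replicate 1 for every anticodon. It was 56.3%, 67.3% and 73.2% on AAC, 65.9%, 77.8% and 92.4% on CAC, and 68.6%, 86.2% and 91.9% on TAC.

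Among the leading copies, the high edit rate belonged to 2 of the 3 TAC copies. On chr10.tRNA6-ValTAC the edits per read were 0.902, 0.989 and 0.994, and on chr11.tRNA16-ValTAC 0.966, 0.991 and 0.993. On chr6.tRNA40-ValTAC they were 0.545, 0.567 and 0.667. The last values were close to those of the leading AAC and CAC copies, which ran from 0.542 to 0.649. The repeat annotation in the files divides these 6 copies in the same way. It gives chr10.tRNA6-ValTAC and chr11.tRNA16-ValTAC the repeat name tRNA-Val-GTA, but chr6.tRNA40-ValTAC the name tRNA-Val-GTG, which is the name of CAC copies. Summed by repeat name, edits per read were 0.937, 0.990 and 0.993 for tRNA-Val-GTA, 0.577, 0.579 and 0.615 for tRNA-Val-GTG, and 0.606, 0.598 and 0.660 for tRNA-Val-GTY, the name of the AAC copies. These sums are mostly the leading copies. Lower copies with other repeat names also had high values, such as 0.970, 0.877 and 0.908 on chr1.tRNA85-ValCAC, and 0.870, 1 and 1 on chr6.tRNA133-ValCAC, which had few reads. This split was made after the values were seen and is a description.

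**Figure D3:**
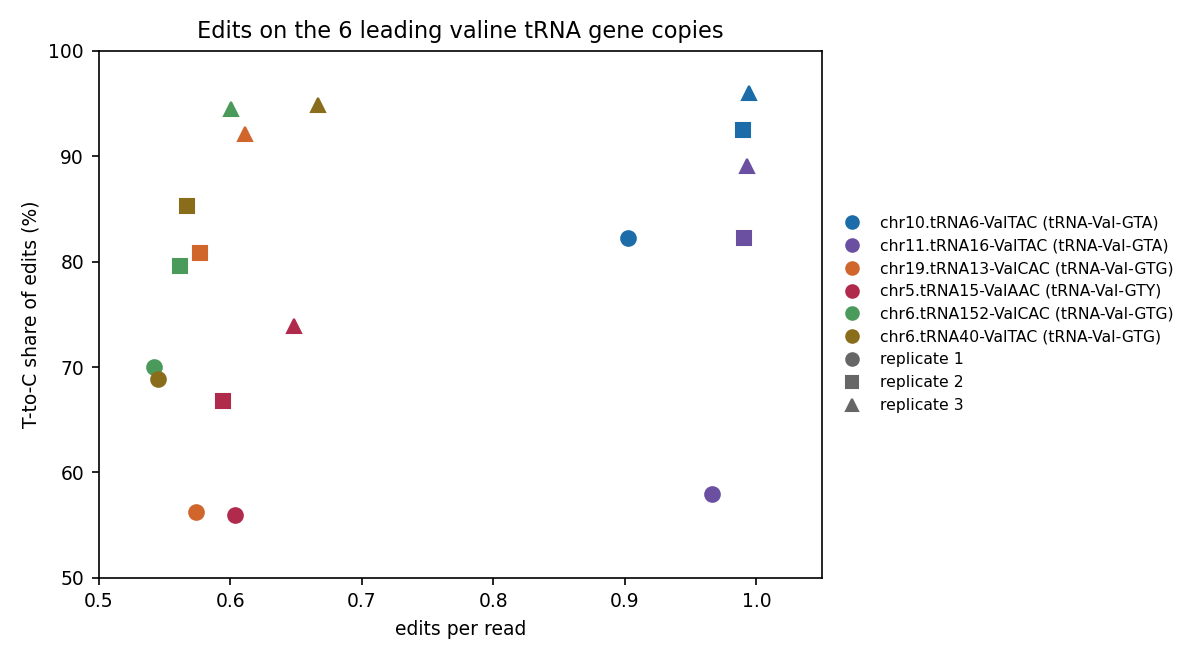
Edits per read (x axis) against the T-to-C share of edits in % (y axis) for the 6 leading copies, with colours for genes, shapes for replicates and the repeat name in brackets. The tRNA-Val-GTA copies lie at 0.902 edits per read or more and the others at 0.667 or less, while the T-to-C share is lowest in replicate 1 on each copy.

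By repeat name, 13 of the 26 genes were tRNA-Val-GTG, 8 tRNA-Val-GTY and 4 tRNA-Val-GTA. The remaining gene, chr1.tRNA99-ValCAC, carried the name tRNA-Gly-GGG and so goes against its gene label. It had 133, 103 and 46 conversions on 142, 107 and 46 reads. Leaving it in or out moves the valine total by at most 0.221%. Another low copy, chr5.tRNA6-ValCAC, had 239 and 1621 reads in replicates 1 and 2, with as many edits as reads, but only 2 and 35 conversions. The genes chr1.tRNA99-ValCAC, chr5.tRNA6-ValCAC and chr6.tRNA133-ValCAC were singled out after their values were seen.

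Against the other tRNA genes, valine genes showed no steady difference per read. Conversions per read were 0.394, 0.523 and 0.656 on valine genes and 0.479, 0.332 and 0.378 on the others in replicates 1, 2 and 3. The others include genes labelled Pseudo, which had 0.090, 0.031 and 0.095 on 16662, 65881 and 48661 reads and so lower that ratio. Some isotypes were also low, such as alanine with 0.303, 0.152 and 0.207 on 10703, 108705 and 69026 reads. Others were above valine, as its ranks below show. A comparison without the Pseudo genes was not made. Valine was lower in replicate 1 and higher in replicates 2 and 3, with a mean difference of 0.39 ± 0.59 (log2, SD, n = 3, exact sign-flip p = 0.5, adjusted p = 0.8). The mean was 0.73 without replicate 1, 0.26 without replicate 2 and 0.19 without replicate 3. Among the 21 isotypes it ranked 17, 6 and 6 by this ratio. Conversions per edit, added after the values were seen, differed by 0.58 ± 0.55 (log2, SD, n = 3, exact sign-flip p = 0.5, adjusted p = 0.8), and by 0.90 without replicate 1.

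Read repetition differed no more clearly. Valine genes had 26.2, 23.9 and 35.2 reads per distinct read and the other tRNA genes 19.0, 30.8 and 54.3. The mean difference was -0.18 ± 0.57 (log2, SD, n = 3, exact sign-flip p = 0.75, adjusted p = 1). It was -0.49 without replicate 1, -0.081 without replicate 2 and 0.050 without replicate 3. Between anticodons, AAC genes had 46.4, 27.6 and 32.3 reads per distinct read and CAC genes 19.8, 29.6 and 40.1. Only replicate 1 put AAC above CAC, and the mean difference was 0.27 ± 0.84 (log2, SD, n = 3, exact sign-flip p = 1, adjusted p = 1). That difference was -0.21 without replicate 1, 0.46 without replicate 2 and 0.57 without replicate 3.

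Each cluster carries a single position in its attributes, whose definition the files do not give and which is called the centre here. Centres were compared on the cluster of each gene with the most conversions in each replicate. On the leading copies the centre of this cluster did not move. Among the 15 valine genes with a cluster in every replicate, 8 had the same centre to the base in all 3. The same held for 39.1% of all 207 such tRNA genes and 38.0% of the 192 others. All 6 leading copies were among the 8. Of the 23 other tRNA genes with at least as many series-wide conversions as the lowest leading copy, 18, or 78.3%, also had the same centre, so a fixed centre was not particular to valine. The other valine genes with a fixed centre by this measure were chr6.tRNA157-ValCAC and chr6.tRNA37-ValAAC. On chr1.tRNA85-ValCAC the strongest cluster changed between replicates, although its 3′ cluster kept the same centre in all 3.

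In the series-wide list the centre lay towards the 5′ side of the leading clusters. It was 26 nt from the 5′ edge on chr5.tRNA15-ValAAC, chr19.tRNA13-ValCAC and chr11.tRNA16-ValTAC, 31 nt on chr6.tRNA152-ValCAC, 22 nt on chr10.tRNA6-ValTAC and 24 nt on chr6.tRNA40-ValTAC. These clusters were 61 to 100 nt long. In the replicate lists the distance ran from 19 to 31 nt, and shorter clusters did not all show this. On chr6.tRNA152-ValCAC the centre was 24 nt from the 5′ edge of clusters of 40 and 45 nt in replicates 1 and 3, nearer the 3′ edge, and on chr11.tRNA16-ValTAC in replicate 1 it was in the middle of a cluster of 53 nt. For genes with a cluster in all 3 replicates, the strongest series-wide cluster was compared where it was at least as long as the shortest of these. The centre was nearer the 5′ edge on 7 of 9 valine genes, or 77.8%, and on 51 of 81 other tRNA genes, or 63.0%. The 9 include the 6 leading copies, whose shortest cluster set the limit. Conversions were spread over 12, 13 and 10 positions of the main cluster on chr5.tRNA15-ValAAC and over 17, 21 and 16 on chr10.tRNA6-ValTAC in replicates 1, 2 and 3. Distances are from cluster edges, which are not the ends of the gene.

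**Figure D4:**
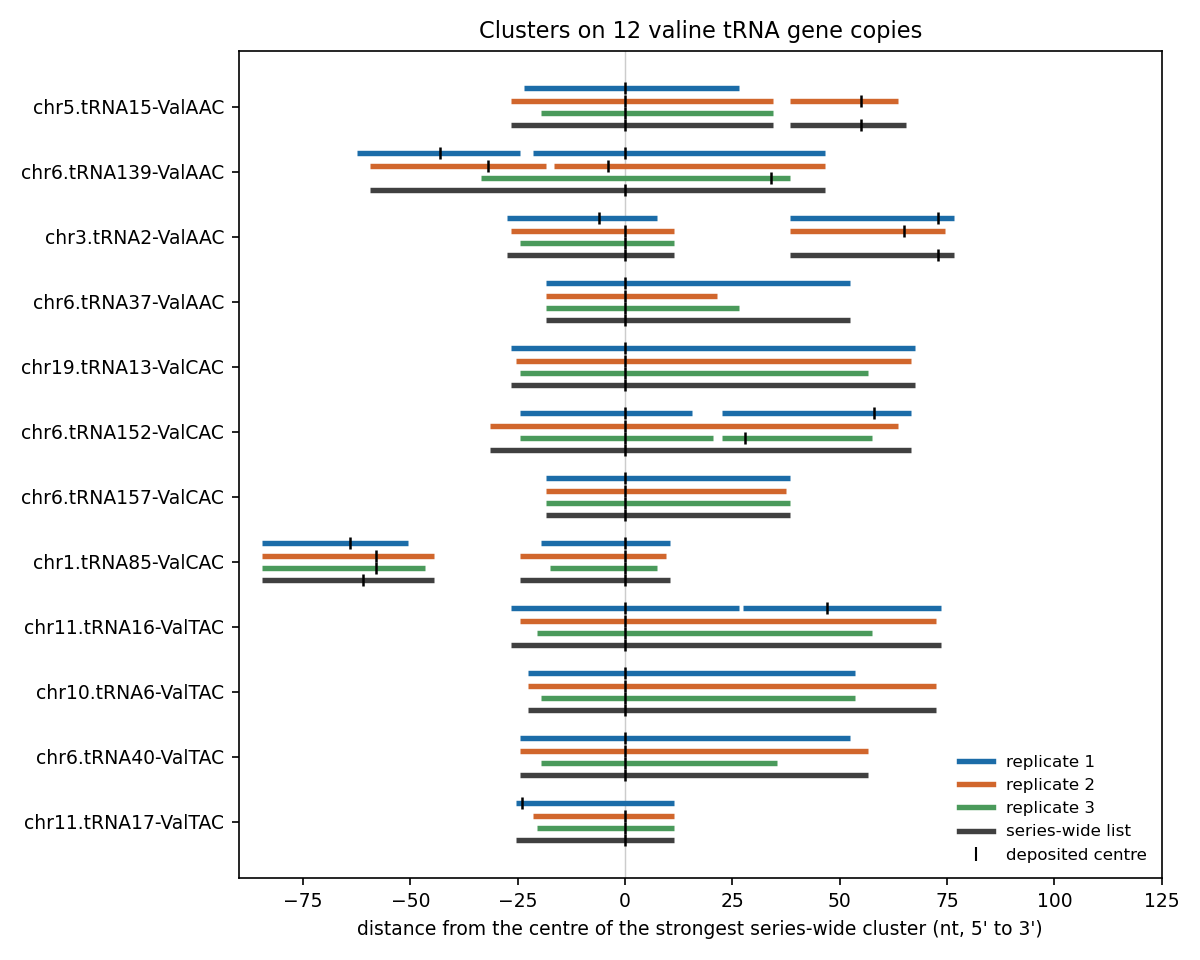
Extent of each cluster on 12 valine copies, in nt from the centre of the strongest series-wide cluster and drawn 5′ to 3′, with 1 line per list and a tick at the deposited centre. The ticks of the strongest clusters of the 6 leading copies fall at 0 in all replicates. Several copies carry a second cluster on the other side of a gap, with its own tick away from 0.

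On 9 valine genes at least 1 list held a pair of clusters separated by a gap. How many other tRNA genes held such a pair is not given here. Valine genes had 31 clusters on 24 genes, 24 on 19 and 19 on 16 in replicates 1, 2 and 3. All nuclear tRNA genes had 416 on 317, 384 on 305 and 260 on 222. On the leading copies the 5′ cluster held nearly all conversions of such a pair. It had 9359 conversions against 165 on chr6.tRNA152-ValCAC in replicate 1 and 5404 against 36 in replicate 3. On chr11.tRNA16-ValTAC in replicate 1 it had 6071 against 30, and on chr5.tRNA15-ValAAC in replicate 2 it had 15363 against 2. The gaps of these pairs were 7 and 2 nt on chr6.tRNA152-ValCAC, 1 nt on chr11.tRNA16-ValTAC and 4 nt on chr5.tRNA15-ValAAC. In the series-wide list chr6.tRNA152-ValCAC and chr11.tRNA16-ValTAC each had a single cluster, of 98 and 100 nt. Over all genes with a pair the 5′ cluster was the higher on 4 of 7, 3 of 5 and 3 of 3 in replicates 1, 2 and 3. The lower copies were mixed. On chr1.tRNA85-ValCAC the 5′ and 3′ clusters had 257 and 1788 conversions in replicate 1, 339 and 104 in replicate 2, and 114 and 36 in replicate 3, so its high value in replicate 1 came from the 3′ cluster. On chr3.tRNA2-ValAAC the 5′ cluster had 111 and 391 conversions in replicates 1 and 2 and the 3′ cluster 26 and 12, and the 3′ cluster was also annotated as a simple repeat of T.

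Cluster lengths were close to those of other tRNA genes. The median was 38, 40 and 38 nt on valine genes and 38, 40 and 35 nt on the others, a difference of 1 nt ± 1.73 (SD, n = 3, exact sign-flip p = 1, adjusted p = 1). Clusters longer than the 73 nt of the longest RefSeq valine tRNA were 3 of 31, 5 of 24 and 2 of 19 in replicates 1, 2 and 3. These were 9.68%, 20.8% and 10.5%, against 13.5%, 15.6% and 6.64% for other tRNA genes. Valine was thus lower in replicate 1 and higher in replicates 2 and 3. In the series-wide list such clusters were 7 of 27, or 25.9%, against 22.3% for other tRNA genes. The longest valine cluster was 106 nt, on chr6.tRNA139-ValAAC. In all, 7 of the 26 valine genes had a cluster longer than 73 nt in some list, given here without a matching count for other tRNA genes. Such a cluster must reach past at least 1 end of a mature tRNA of that length.

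Genes that make, trim, modify, export or use tRNAs were looked up as a list of 45. Of these, 28 had a sense cluster in any list and 7 had one in all 3 replicates, where 19.0% of the 10970 gene symbols with a sense cluster did. RPPH1, the RNA subunit of RNase P, had 126, 46 and 156 conversions in replicates 1, 2 and 3. GTF3C4, a subunit of the polymerase III factor TFIIIC, had 58, 45 and 55, and POLR3E, a polymerase III subunit, had 47, 47 and 9. EEF1A1, the factor that brings charged tRNAs to the ribosome, had 103, 6 and 10. BDP1, a part of TFIIIB, had 15, 20 and 13, and the polymerase subunits POLR3C and POLR3D had 1, 11 and 31, and 5, 2 and 4. All were far below the 6 leading valine copies. When only clusters with at least 3 distinct reads each were kept, 1 of the 7, RPPH1, remained in all replicates. The limit applied to each cluster, so GTF3C4 fell out although its clusters together had 7, 15 and 6 distinct reads.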

How the data were processed

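Clusters came from PAR-CLIP libraries of 3 replicates, each sequenced in 2 runs per the labels. Bowtie2 2.1.0 and the build hg19 are named in the submitters' processing notes. The authors deposited 1 list per replicate and 1 series-wide list at an estimated false discovery rate of 5%, per the file attributes, and the replicate lists were filtered by length. The deposited conversion count is a whole number per cluster, not normalised to depth. The deposited entropy score was not used. Reads, distinct reads, edits, centre and annotation came from the deposited attribute text.

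Values were summed per gene, anticodon and isotype in Python 3.11.15 (pandas 2.3.3, numpy 2.4.6), and ratios of sums were compared between groups of genes within each replicate. Differences of log2 ratios were tested by an exact two-sided sign-flip permutation over 3 replicates, with Benjamini-Hochberg adjustment over 8 tests. This step was tested on simulated data. Shares have 95% Wilson intervals (scipy 1.17.1). No cluster named more than 1 tRNA gene.

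Full values are given for the 4 copies of each anticodon with the most distinct reads in the series-wide list and for the 2 valine clusters with the most conversions in each replicate. The members and lists were chosen with earlier results of these data known. After values were seen, the 1% limit was changed from the mean share, which also took chr1.tRNA85-ValCAC, to the share in every replicate. The TAC and per-edit tests, the repeat names, the comparison genes for the centre, the chromosome 11 pair and the RefSeq name match were also added then. Alternatives were clusters with at least 3 distinct reads, no strongest valine cluster, each replicate left out, distinct reads as weight and the series-wide list.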

Additional observations from a re-analysis of the deposited data

How the results depend on the processing

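Of 90 alternative values, 4 differences changed sign, 7 shares or counts moved by more than the spread between replicates or, for counts, by over 1.5 times, and 79 did neither. A difference was judged by its sign alone and the spread was wide, so some of the 79 still moved far, such as the AAC share to 14.8% without the strongest cluster and 15.8% without replicate 1, and the valine difference in conversions per read to 0.73 without replicate 1 and 0.19 without replicate 3. The valine share of tRNA conversions was 19.2% without the strongest valine cluster of each replicate, 23.4% by distinct reads and 25.6% to 27.0% with a replicate left out. The TAC share of valine was 52.2% without the strongest cluster. That cluster was always on an AAC or CAC gene, so its removal could only lower the valine share and raise the TAC share. Valine genes counted 23 in the series-wide list. The tRNA maturation list counted 1 when only clusters with at least 3 distinct reads were kept, and 14 in the series-wide list. It counted 8 to 13 with a replicate left out, the last without replicate 3. With a replicate left out, fewer replicates had to hold a cluster, so this count and that of valine genes could not fall. The difference in reads per distinct read between valine and other tRNA genes ran from -0.49 to 0.050 (log2) with a replicate left out, turning sign without replicate 3. The same ratio between AAC and CAC was -0.78 without the strongest cluster and ran from -0.21 (without replicate 1) to 0.57, and the AAC and CAC difference in conversions per read was 0.079 without the strongest cluster. The cause was not tested. The difference in cluster length was 0 nt without replicate 3. Leaving out clusters that name several tRNA genes changed nothing, since there were none. The values of this setting are counted among the 79, although they could not have moved. No paired analysis was possible because there is 1 group of samples, although groups of genes were compared within each replicate. With 3 replicates no p could fall below 0.25, and the lists give no total sequencing depth.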

Other observations

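A valine tRNA repeat that is annotated with no tRNA gene lies in an intron of AC073283.4 (hg19 chr2:47507893-47507935, minus strand) and carries the repeat name of the AAC copies, tRNA-Val-GTY. It had 6913, 189444 and 79062 conversions in replicates 1, 2 and 3, which is 0.115, 2.24 and 1.53 times those of all valine tRNA genes together. Its distinct reads were 503, 710 and 367, fewer in replicates 1 and 2 than on chr5.tRNA15-ValAAC alone. It had 40.7, 556 and 407 reads per distinct read. Replicate 1 was its lowest by conversions and the highest of chr5.tRNA15-ValAAC. Whether reads of one locus were placed on the other was not tested.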
